A study of Rattus norvegicus with 9 samples.

Results

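Horizontal basal cells (HBCs) cultured from rat olfactory epithelium and exposed to phorbol 12-myristate 13-acetate (PMA) for 12 h were compared with vehicle-treated HBCs. The comparison takes 6 of the 9 RNA sequencing libraries of the study, chosen by their titles, with 3 libraries in each group. All cells were primary dissociations of olfactory epithelium from SD rats, grown in the submitters' HBC culture system and sequenced at passage 7. The vehicle libraries had 0.1% DMSO and are labelled as time 0 h. The PMA libraries had 50 nM PMA for 6 h or 12 h, and the 3 libraries of 6 h serve here to show what differed between 6 h and 12 h. No vehicle libraries labelled 6 h or 12 h were analysed here, so the effect of PMA cannot be told apart from that of time in culture. The labels do not say whether replicates are separate animals, cultures or wells, so p-values reflect only how far these libraries spread, which may be technical.

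HBCs serve as a quiescent reserve of stem cells in the olfactory epithelium. They lie flat on the basal lamina, held by hemidesmosomes, carry the basal keratins Krt5 and Krt14, and are kept undifferentiated by the transcription factor p63, the product of Tp63. After severe injury they lose p63, divide and give rise to neuronal progenitors and to non-neuronal cells. PMA stands in for diacylglycerol, the lipid that switches on the conventional isoforms of protein kinase C (PKC) and those calcium-independent isoforms that bind this lipid. PKC in turn drives the ERK kinases, the AP-1 transcription factors of the Fos and Jun families and NF-kB, and in keratinocytes phorbol esters are a classical trigger of terminal differentiation. The series title describes the treatment as a model of acute HBC activation.

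Each library held 13601635 to 19001819 reads in genes, 67.8% to 71.3% of its reads, and no 2 libraries of a group were copies of each other. Levels are given in CPM, the reads of a gene relative to its library's total, with the total scaled by the trimmed mean of M-values (TMM), and 3 reads over a group of 3 libraries correspond to 0.0459 CPM in vehicle and 0.0750 CPM at 12 h. A gene was called when the Benjamini-Hochberg adjusted p of edgeR's quasi-likelihood test was under 0.05, over 10128 genes tested. Values after ± are standard deviations (SD) over 3 libraries, and SE is the standard error of a log2 fold change. The cells carried the HBC markers Krt5, Krt14, Tp63 and Icam1, whereas markers of other cells were few. Of 16 markers of olfactory neurons and their precursors 11 stayed under 1 CPM in every library, and so did 6 of 10 sustentacular and gland markers, 8 of 11 respiratory and microvillar markers, 9 of 12 fibroblast and pericyte markers, 7 of 11 immune markers and 11 of 12 endothelial and glial markers. In that order 5, 4, 2, 5, 2 and 3 of them had no read in any library, among them the neuronal genes Gap43 and Dcx, the fibroblast gene Col1a2 and the glial gene Sox10. Summed levels were 182 to 212 CPM in vehicle and 186 to 201 CPM at 12 h for the neuronal markers, mostly Adcy3, and 8.07 to 9.58 CPM against 2.79 to 4.28 CPM for the fibroblast and pericyte markers. The immune sum was 27.8 to 29.9 CPM in vehicle and 85.6 to 96.5 CPM at 12 h, mostly the lysosomal protein gene Cd68 (19.6 ± 1.48 and 85.6 ± 6.36 CPM), and Ptprc, the pan-leukocyte marker, had no read in any library. Sums for the sustentacular and gland list were 1246 to 1457 CPM and 2610 to 3018 CPM, mostly Krt8, and 699.9 to 944 CPM against 885 to 962 CPM for the respiratory and microvillar list, mostly Tubb4b. The endothelial and glial sum was 0.531 to 1.16 CPM against 2.11 to 4.42 CPM. The part of other cells in the results was not tested, and in bulk RNA a change in the share of cells cannot be told apart from a change in RNA per cell.

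At 12 h 7682 of the 10128 genes tested were called, 75.8%. Of these 3818 were higher than in vehicle (37.7% of genes tested) and 3864 lower (38.2%), so that a count of list members is read here against those shares. Changes of at least 2-fold were called for 1820 genes that rose (18.0%) and 2065 that fell (20.4%), and of at least 8-fold for 281 (2.77%) and 286 (2.82%). Called genes changed by a median of 1.01 on the log2 scale, in either direction. The CPM ranges of vehicle and 12 h did not overlap for 97.6% of them and for 78.7% of all genes tested, 38.7% with 12 h higher and 40.0% with 12 h lower. RNA at 12 h was concentrated in fewer genes: 338 to 374 genes held 50% of the reads, against 611 to 645 in vehicle. The balance of rises and falls depends on the scaling. With upper-quartile scaling the median over all genes moved from -0.02 to -0.29 and the calls split into 2963 higher and 4827 lower, and with library totals alone the median was -0.60 and the calls split into 2120 and 6021. Rises smaller than those shifts thus depend on the choice of scaling. DESeq2 size factors in edgeR gave nearly the same balance as TMM, with 3817 higher and 3864 lower.

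**Figure D1:**
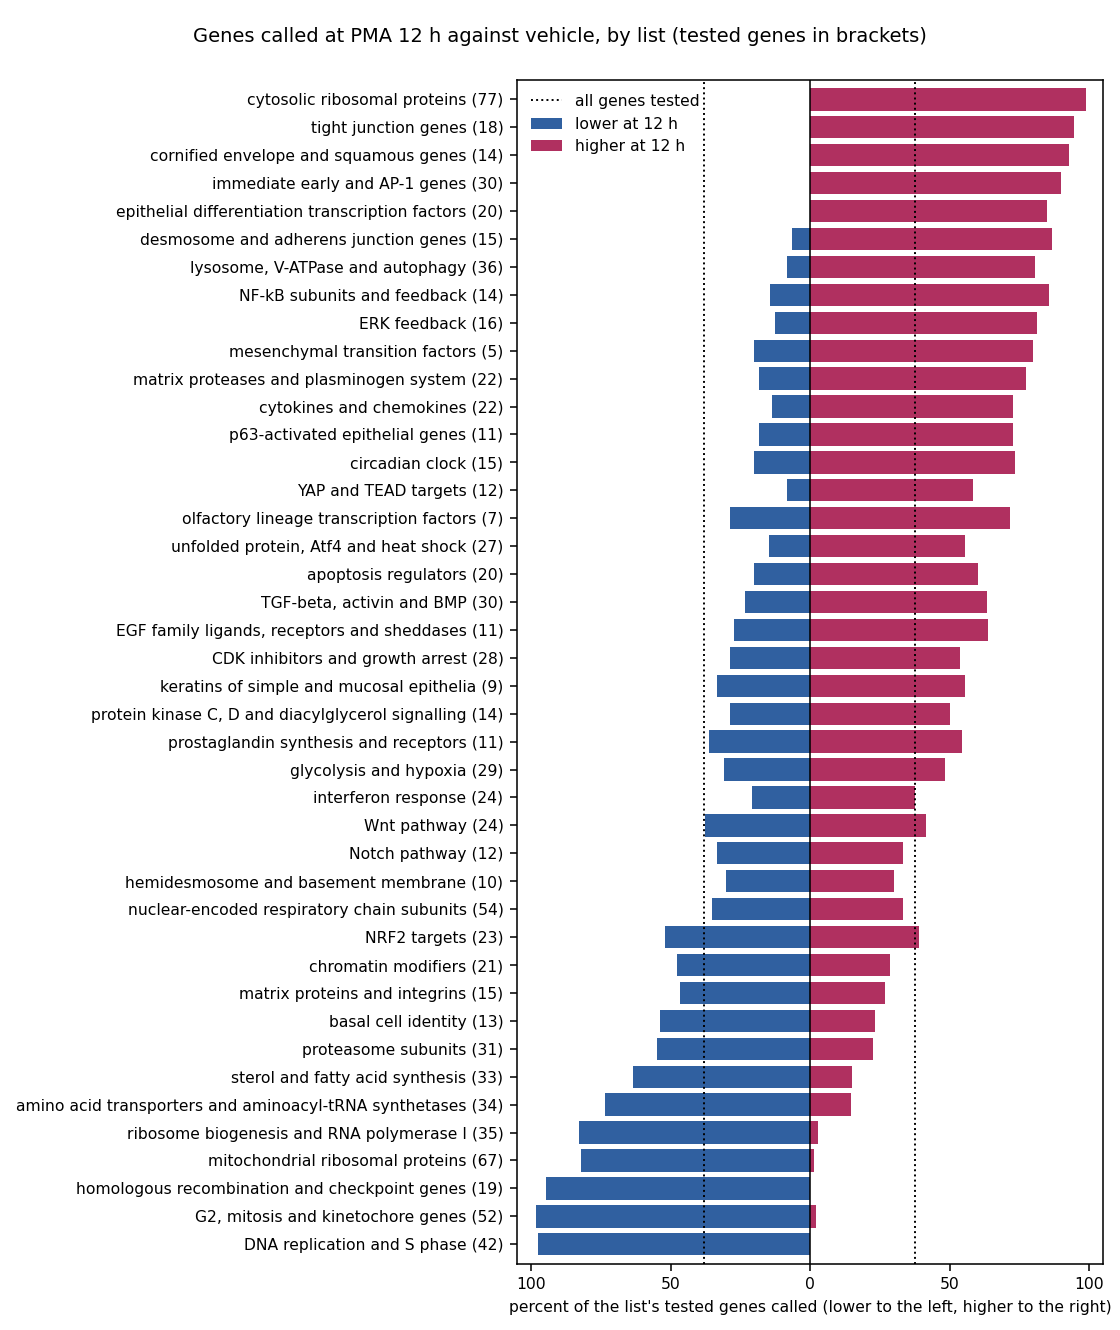
Percent of each list's tested genes called higher (right, red) or lower (left, blue) at 12 h of PMA against vehicle, with the 37.7% and 38.2% of all genes tested as dotted lines. Lists of cytosolic ribosomal proteins, tight junctions, squamous genes and immediate early genes lie almost wholly to the right, and lists of S phase, mitosis and DNA repair almost wholly to the left.

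The genes that define HBCs moved in different directions. Krt5, the type II keratin of basal cells, stood at 5919.6, 7507 and 7048 CPM in the 3 vehicle libraries and at 416, 593 and 459 CPM in the 3 libraries of 12 h. Its partner Krt14 stood at 5444, 5510.3 and 5014 CPM in vehicle and 893, 1059 and 1089 CPM at 12 h. Every 12 h library lay far below every vehicle library for both keratins, which fell 13.9-fold (log2 -3.802, SE 0.15, edgeR adjusted p = 2.17e-10) and 5.25-fold (log2 -2.39, SE 0.10, edgeR adjusted p = 4.85e-13). In shares of all reads in genes Krt5 went from 0.883% to 0.0424% and Krt14 from 0.689% to 0.0877%. Krt15, a keratin of quiescent basal cells in stratified epithelia, fell from 60.6 ± 6.75 to 7.803 ± 0.601 CPM, and Krt17, a keratin of stressed and wounded epithelium, fell from 6424 ± 445 to 4361 ± 285 CPM.

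Tp63 itself measured 249.5, 205 and 202 CPM in vehicle and 96.1, 88.7 and 87.3 CPM at 12 h. No 12 h library reached the lowest vehicle library, and the fall was 2.41-fold (log2 -1.27, SE 0.09, edgeR adjusted p = 7.98e-10). At 6 h it was lower still, 48.9, 50.4 and 44.3 CPM, and the rise from 6 h to 12 h was called (log2 0.92, SE 0.093, edgeR adjusted p = 4.11e-07). Icam1, the adhesion molecule used to purify HBCs, went the other way, with 144, 153 and 130.4 CPM in vehicle and 344, 405 and 328 CPM at 12 h, a rise of 2.52-fold (log2 1.33, SE 0.10, edgeR adjusted p = 1.23e-09). Cd44, the hyaluronan receptor of basal cells, was at 1815 ± 124 and 1683 ± 205 CPM and was not called (log2 -0.11, SE 0.091). Over the 13 tested genes of the basal identity list 3 rose, 7 fell and 3 did not pass the test, with a median log2 fold change of -0.53 (1 rose without normalization).

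Most genes in a list of targets that p63 is known to activate did not follow Tp63 down. Krt5, Krt14 and Col17a1, which fell, are counted in other lists and not in this one, so the list does not stand for all p63 targets. Of 11 tested, 8 rose and 2 fell, with a median of 0.86. Without normalization 6 rose and 5 fell, with a median of 0.28. Tfap2c and Tfap2a, AP-2 transcription factors of surface epithelium, rose from 57.6 ± 1.899 to 257 ± 21.5 CPM and from 35.7 ± 1.79 to 135 ± 10.8 CPM. Fgfr2, a growth factor receptor of basal epithelium, rose from 92.8 ± 5.05 to 199 ± 2.94 CPM. The related receptor gene Fgfr3 fell from 13.8 ± 1.196 to 5.12 ± 0.975 CPM.

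The anchoring machinery changed part by part. Laminin-332, the basement membrane protein that hemidesmosomes bind, is built from 3 chains, and Lamb3, the gene of its beta chain, rose from 814, 1069 and 1262 CPM in vehicle to 5819, 6188 and 6571 CPM at 12 h (5.91-fold, log2 2.56, SE 0.14, edgeR adjusted p = 2.09e-09). Its lowest 12 h library exceeded its highest vehicle library. Col17a1, the transmembrane collagen of hemidesmosomes, fell from 1469 ± 513 to 518 ± 27.8 CPM, and the integrin subunits Itgb4 and Itga6 fell from 2083 ± 319.8 to 1213 ± 149 CPM and from 1317 ± 41.7 to 942 ± 47.98 CPM. Of the 10 tested genes of the hemidesmosome and basement membrane list 3 rose and 3 fell, with a median of 0.07 that turned to -0.20 with upper-quartile scaling and -0.51 without normalization. Against 6 h 8 of these 10 were called higher at 12 h and none lower, where 25.3% of all genes tested were called higher.

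**Figure D2:**
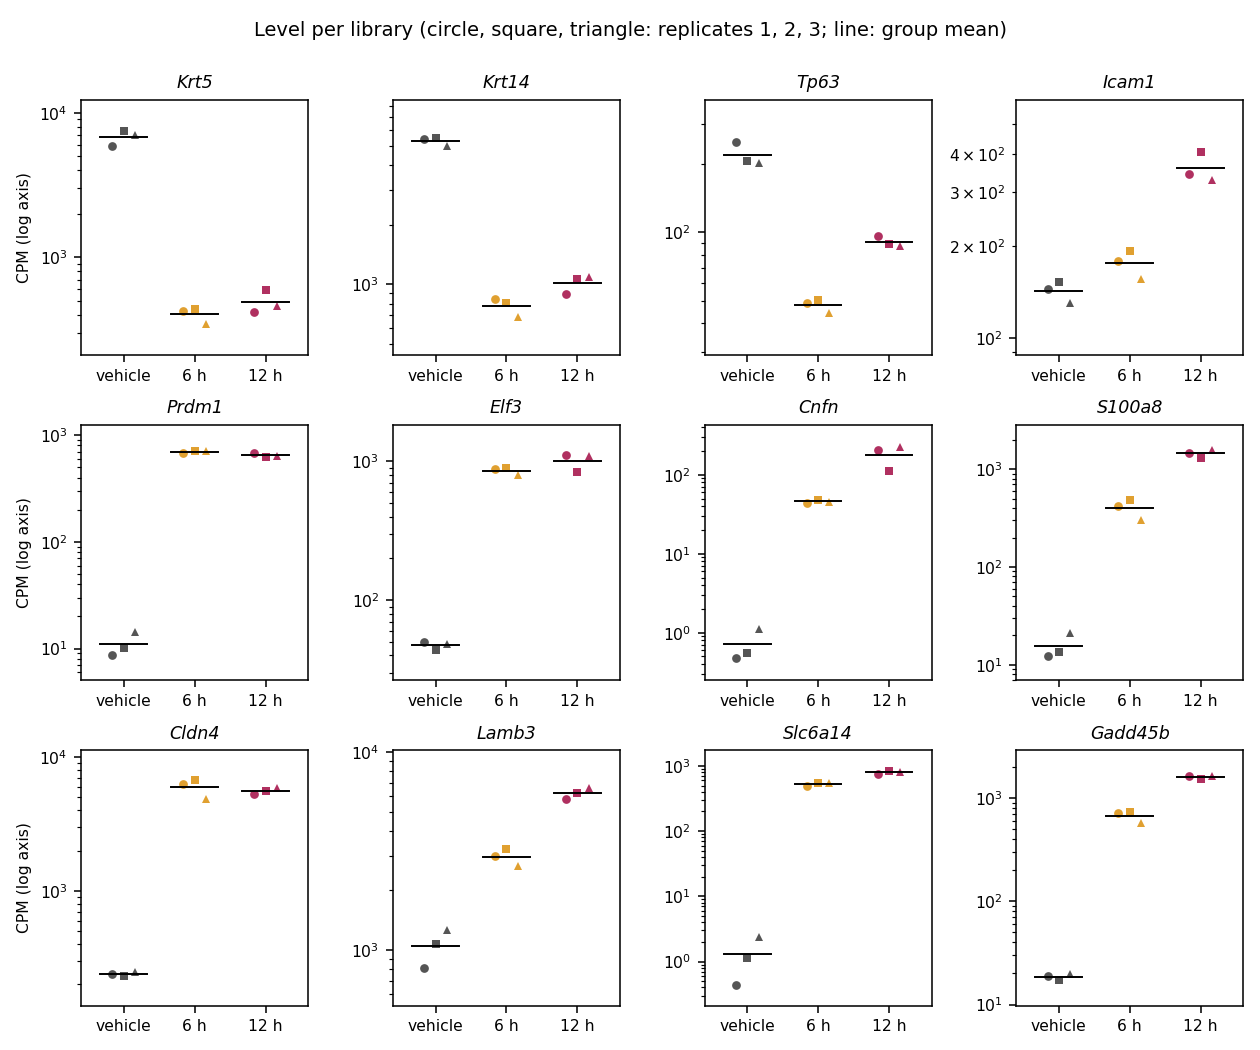
Level of 12 genes in each of the 9 libraries, in TMM-scaled CPM on log axes, with symbols for replicates 1, 2 and 3 and a line at each group mean. The 12 h libraries lie below all vehicle libraries for Krt5, Krt14 and Tp63 and above all of them for the other 9 genes.

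Transcription factors of epithelial differentiation rose as a set, with 17 of 20 tested genes higher, none lower and a median log2 fold change of 1.69. Prdm1, which encodes Blimp1, a repressor needed for the terminal differentiation of keratinocytes, measured 8.801, 10.2 and 14.2 CPM in vehicle and 677, 620.01 and 639 CPM at 12 h. The groups were far apart, and the rise was 58.8-fold (log2 5.88, SE 0.14, edgeR adjusted p = 3.64e-15). Elf3, an ETS factor of differentiating epithelia, rose from 50.1, 43.5 and 48.1 CPM to 1109.9, 834 and 1088 CPM (21.4-fold, log2 4.42, SE 0.11, edgeR adjusted p = 3.42e-15). Both stood near their 6 h level, and neither was called between 6 h and 12 h. Ovol1 and Grhl3, factors that take keratinocytes out of the cycle and build the barrier, were also far above vehicle, at 151 ± 19.8 against 6.74 ± 0.791 CPM and 168 ± 12.9 against 13.2 ± 1.02 CPM, but below their 6 h levels of 454 ± 34.9 and 561 ± 51.8 CPM (log2 12 h against 6 h -1.59 and -1.74). The ETS factor Ehf rose from 19.2 ± 3.402 to 214 ± 8.47 CPM. Gata3, a regulator of epidermal lipids and luminal fate, was late, at 1.25, 1.29 and 0.956 CPM in vehicle, 1.73, 1.91 and 0.925 CPM at 6 h and 8.504, 7.12 and 9.28 CPM at 12 h. Ovol2, Hopx and Klf5 rose 3.45-fold, 4.09-fold and 2.82-fold. Grhl2, which maintains epithelial junctions, was at 57.8 ± 1.84 and 53.4 ± 3.63 CPM and was not called. With upper-quartile scaling and without normalization 1 gene of the set was called lower.

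The cornified envelope is the protein shell of dying squamous cells. A list of its genes and of other squamous genes had 23 entries, of which 16 were among the genes counted and 14 were tested. Of these 14, 13 rose and none was lower, with a median of 3.24. The remaining gene was called lower by limma-voom, with upper-quartile scaling, without normalization and without PMA 12 h replicate 1. Cnfn, cornifelin, went from 0.475, 0.558 and 1.11 CPM to 203, 112 and 224 CPM, a rise of 257-fold (log2 8.01, SE 0.39, edgeR adjusted p = 2.49e-07). The lowest of the 3 libraries of 12 h was the second replicate, still far above vehicle. In the GRCr8 gene table Cnfn overlaps another gene, and reads of the pair cannot be assigned by strand. S100a8 and S100a9, which pair to form calprotectin, an antimicrobial calcium-binding protein of stressed epithelium, rose from 12.3, 13.6 and 20.97 to 1472, 1295 and 1584 CPM and from 1.98, 1.37 and 4.41 to 255, 210.1 and 235 CPM. Ivl, involucrin, the classical substrate of the envelope's transglutaminase, rose from 0.704 ± 0.2899 to 24.1 ± 3.204 CPM, and Sprr1a, a small proline-rich protein cross-linked into the envelope, from 55.1 ± 13.7 to 1736 ± 128 CPM (31.6-fold). Tgm1, that transglutaminase, rose 2.03-fold and Ppl, periplakin, 2.397-fold. Against 6 h Cnfn, S100a8, S100a9, Ivl, Sprr1a and Sbsn were all higher at 12 h, by log2 1.27 for S100a9 to 2.104 for Sbsn. In that comparison the list counted 8 members higher and 2 lower, against 25.3% and 25.8% of all genes tested. Sprr3 was called lower than vehicle at 6 h and higher at 12 h (1.596, 2.105 and 5.57 CPM in vehicle, 1.24, 1.32 and 1.503 at 6 h and 11.97, 7.12 and 6.67 at 12 h), with a log2 fold change at 12 h of 1.4998 that became 2.21 without vehicle replicate 3.

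Keratins of simple and mucosal epithelia had no common direction. Krt18 and Krt80 rose from 6.48 ± 0.946 to 37.8 ± 9.12 CPM and from 54.8 ± 8.82 to 656 ± 17.96 CPM, and Krt16, a keratin of hyperproliferative and wounded epidermis, rose 2.03-fold. Krt13 and Krt4, the keratin pair of mucosal suprabasal cells, fell from 21.9 ± 8.05 to 3.18 ± 1.63 CPM and from 2.596 ± 0.166 to 0.566 ± 0.117 CPM, and Krt19 fell from 11.8 ± 2.62 to 3.09 ± 1.13 CPM. The count was 5 higher and 3 lower of 9 tested.

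Tight junctions, the seals between neighbouring epithelial cells, gave a one-sided list: 17 of 18 tested genes rose, none fell, and the median log2 fold change was 2.05. Cldn4, a claudin of the paracellular barrier, measured 241, 230.5 and 247 CPM in vehicle and 5345, 5584 and 5873 CPM at 12 h, a rise of 23.4-fold (log2 4.55, SE 0.11, edgeR adjusted p = 1.70e-15), and its share of reads went from 0.0310% to 0.485%. Cldn3 rose from 9.64 ± 2.003 to 91.7 ± 15.1 CPM, Cldn23 from 7.13 ± 0.512 to 77.5 ± 1.54 CPM and Ocln, the tight junction protein occludin, from 48.8 ± 8.28 to 265 ± 36.1 CPM. The scaffold genes Tjp1 and Tjp3 rose 2.75-fold and 2.57-fold, and the polarity genes Pard6b and Crb3 rose 8.802-fold and 6.38-fold. Cldn12 was at 47.1 ± 5.66 and 40.9 ± 1.31 CPM and was not called, and it was the 1 gene called lower with upper-quartile scaling, without normalization and without vehicle replicate 1. Between 6 h and 12 h none of the list was called higher and 9 were called lower, against 25.3% and 25.8% of all genes tested. Cldn1 had the largest log2 fall, -1.09.

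Desmosomes and adherens junctions, the strong mechanical contacts, followed with 13 of 15 higher and 1 lower (median 1.22, with 3 lower when library totals were not normalized). Dsc2, a desmosomal cadherin, rose from 239.7 ± 4.38 to 1337 ± 74.9 CPM, Cdh1, E-cadherin, from 1044 ± 151 to 2439 ± 89.4 CPM, and Ctnnb1, beta-catenin, from 688 ± 40.7 to 2177 ± 131 CPM. Pvrl1, nectin-1, fell from 413 ± 13.5 to 104.8 ± 5.87 CPM. Factors of epithelial to mesenchymal transition, which repress E-cadherin in other settings, gave 5 tested genes, of which 4 rose, each at least 2-fold, and 1 fell (median 1.64, with 3 higher by upper-quartile scaling and without normalization). Zeb1 rose from 0.938 ± 0.594 to 5.91 ± 0.719 CPM, Snai1 from 0.185 ± 0.131 to 1.18 ± 0.4899 CPM and Tcf4 from 5.13 ± 0.4405 to 16.1 ± 1.52 CPM. Snai2, a repressor present in basal cells, was the 1 that fell, from 35.5 ± 1.57 to 13.6 ± 1.62 CPM after 3.04 ± 0.927 CPM at 6 h.

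Of 14 tested genes of PKC, protein kinase D and diacylglycerol signalling 7 rose, 6 of them at least 2-fold, and 4 fell, with a median of 0.57 that was -0.01 without normalization, where 7 fell. Prkcd and Prkca, a calcium-independent and a conventional isoform that PMA binds, rose from 107 ± 6.41 to 346 ± 9.21 CPM and from 50.96 ± 0.863 to 129.7 ± 11.2 CPM. Prkci, an atypical isoform without a phorbol ester site, fell from 189.96 ± 4.45 to 144 ± 12.2 CPM. Marcks, a main PKC substrate at the membrane, measured 45.8, 49.96 and 44.8 CPM in vehicle and 463, 528 and 423 CPM at 12 h, a rise of 10.05-fold (log2 3.33, SE 0.10, edgeR adjusted p = 1.10e-14).

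Immediate early genes, which respond to ERK within minutes in many cells, were still above vehicle at 12 h: 27 of 30 tested were higher and none lower, with a median of 2.41 (3 were called lower without normalization). Egr1, a zinc finger factor induced through ERK, rose from 54.9, 50.9 and 43.6 CPM to 786, 820.3 and 799 CPM (16.1-fold, log2 4.01, SE 0.091, edgeR adjusted p = 5.25e-16), and it was higher at 12 h than at 6 h (log2 1.31). Among AP-1 subunits Junb went from 327, 298 and 277 to 2308, 2351 and 2613 CPM and Jun from 60.1, 61.0002 and 65.1 to 341, 396 and 376 CPM, with no overlap between the groups. Fosb and Fos rose from 1.78 ± 0.302 to 11.4 ± 0.888 CPM and from 6.48 ± 0.7098 to 18.1 ± 1.91 CPM and were below their 6 h levels (log2 -1.97 and -0.79). Batf3 and Atf3, bZIP partners of Jun proteins, rose from 0.1004 ± 0.0895 to 15.7 ± 2.604 CPM and from 3.23 ± 0.286 to 164 ± 10.7 CPM. Fosl2 was at 13.9 ± 3.78 and 17.7 ± 2.33 CPM and was not called (log2 0.34), though it was without vehicle replicate 1 (log2 0.56). Zfp36, an RNA-binding protein that shortens the life of cytokine mRNAs, rose 18.1-fold, and Myc, a transcription factor of cell growth, 2.64-fold, from 179.9 ± 10.9 to 475 ± 13.03 CPM.

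Feedback inhibitors of ERK and other MAP kinases rose in 13 of 16 tested cases, with 2 lower and a median of 2.42 (1 lower when vehicle replicates 1 or 2, or replicates 1 or 3 of 12 h, were left out). The MAP kinase phosphatase gene Dusp10 went from 24.6 ± 1.55 to 290.1 ± 27.4 CPM and Dusp5, a nuclear phosphatase for ERK, from 104 ± 10.7 to 1051 ± 37.5 CPM. Spry2 and Spry1, Sprouty proteins that dampen receptor signals, rose from 11.6 ± 1.4995 to 135 ± 18.2 CPM and from 2.11 ± 0.1098 to 11.6 ± 1.87 CPM. Their course differed, since Spry2 was below its 6 h level (log2 -1.11) and Spry1 above it (log2 2.098). Dusp6, the cytoplasmic ERK phosphatase, measured 167, 176 and 165 CPM in vehicle, 456, 432 and 402 CPM at 6 h and 168, 162 and 175 CPM at 12 h. It was not called against vehicle at 12 h (log2 -0.0099, SE 0.072) and was lower than at 6 h (log2 -1.36, SE 0.072, edgeR adjusted p = 3.50e-10). Over the 16 genes of the list 3 were higher and 8 lower at 12 h than at 6 h, against 25.3% and 25.8% of all genes tested.

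Ligands of the EGF receptor differed among themselves. Hbegf, the heparin-binding ligand that PMA causes to be shed in many cells, rose from 226, 229 and 243 CPM to 1101, 1081 and 1098 CPM (4.698-fold, log2 2.23, SE 0.073, edgeR adjusted p = 2.84e-14), Areg from 80.5 ± 4.93 to 146 ± 3.75 CPM and Tgfa from 175 ± 16.99 to 355 ± 28.5 CPM. Nrg1, a ligand of the Erbb3 and Erbb4 receptors, fell from 395, 360.3 and 318 CPM to 51.1, 61.7 and 41.4 CPM, and Epgn, epigen, fell from 19.3 ± 8.43 to 0.875 ± 0.366 CPM. Erbb3 itself rose from 8.08 ± 1.402 to 67.4 ± 8.98 CPM and Erbb2, its kinase-active partner, 1.85-fold. The list counted 7 higher and 3 lower of 11 tested, with a median of 0.86.

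Promoters of genes that rose at 12 h held the phorbol ester response element, the AP-1 site, in a larger share than those of genes that fell. The windows ran from 250 bases before to 50 bases after the transcription start of RefSeq genes (GRCr8), and 7925 of the 10128 tested genes had a single window. The letters searched were TGAGTCA on both strands. They were found in 6.02% of 1361 windows of genes that rose at least 2-fold, in 3.07% of 1663 windows of genes that fell at least 2-fold and in 3.65% of all 7925. Among 201 windows of genes that rose at least 8-fold the share was 8.96%, and over all 24206 RefSeq windows it was 4.53%. In the matrix protease list 6 of 15 windows (40.0%) held them, those of Mmp10, Mmp12, Mmp13, Mmp1, Mmp3 and Plaur, and none of 19 windows of the immediate early list did. A match is a description of letters and not of binding. The 3 list genes with the largest rises at 12 h among those holding the letters, at 5 CPM or more in every 12 h library, are shown 5′ to 3′ on the gene's strand, with the element in capitals.
Slc6a14 (chrX:117144676-117144975, + strand): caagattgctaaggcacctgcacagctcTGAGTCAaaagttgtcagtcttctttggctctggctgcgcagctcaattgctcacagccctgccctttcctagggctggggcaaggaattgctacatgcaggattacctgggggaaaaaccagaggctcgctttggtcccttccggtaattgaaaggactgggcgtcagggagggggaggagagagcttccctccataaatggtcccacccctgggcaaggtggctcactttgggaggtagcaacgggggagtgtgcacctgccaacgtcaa
Mmp10 (chr8:12974457-12974756, + strand): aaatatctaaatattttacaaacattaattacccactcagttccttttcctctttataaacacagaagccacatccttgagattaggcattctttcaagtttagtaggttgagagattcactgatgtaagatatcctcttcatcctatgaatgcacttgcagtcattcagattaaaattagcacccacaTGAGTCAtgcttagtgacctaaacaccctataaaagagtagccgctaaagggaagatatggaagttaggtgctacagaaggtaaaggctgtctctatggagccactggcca
Sprr1a (chr2:180752576-180752875, - strand): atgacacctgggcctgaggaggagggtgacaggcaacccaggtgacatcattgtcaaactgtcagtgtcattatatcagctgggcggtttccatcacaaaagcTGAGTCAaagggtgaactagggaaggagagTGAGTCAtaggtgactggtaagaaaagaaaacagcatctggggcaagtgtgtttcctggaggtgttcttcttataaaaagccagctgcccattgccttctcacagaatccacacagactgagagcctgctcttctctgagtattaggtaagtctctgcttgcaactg
The element began 222 bases before the start in Slc6a14, 61 bases before it in Mmp10, and 147 and 117 bases before it in Sprr1a, which held 2 copies.

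NF-kB, a factor kept in the cytoplasm by IkB proteins and released by many stimuli, was followed through its subunits and the inhibitors it induces. Of 14 tested genes 12 rose and 2 fell, with a median of 1.91. Nfkbia, which encodes IkB alpha, rose from 187, 204 and 261 CPM to 1718, 1763 and 1808 CPM (8.1005-fold, log2 3.02, SE 0.11, edgeR adjusted p = 1.95e-13), and Nfkbiz, a nuclear cofactor for secondary targets, from 56.4 ± 5.33 to 497 ± 7.03 CPM. The subunit genes Nfkb2 and Rela rose 4.97-fold and 2.72-fold, and Cyld and Tnip1, which restrain the pathway through ubiquitin, 3.66-fold and 3.98-fold.

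Cytokines and chemokines were higher in 16 of 22 tested cases and lower in 3, with a median of 2.17. Ccl20, the chemokine for Ccr6-bearing lymphocytes, was seen almost only at 12 h: 0.0863, 0.344 and 0.212 CPM in vehicle, 0.0692, 0.514 and 0 CPM at 6 h and 10.7, 14.4 and 9.795 CPM at 12 h. It was called against vehicle (log2 5.72, SE 0.50, edgeR adjusted p = 2.20e-08) and against 6 h (log2 5.98, SE 0.54, edgeR adjusted p = 2.15e-07), the latter becoming 8.23 without PMA 6 h replicate 2 and 5.32 without replicate 3. Csf2, the growth factor for granulocytes and macrophages, rose from 8.84, 11.7 and 16.2 CPM to 186, 254 and 176 CPM. The neutrophil chemokines Cxcl1 and Cxcl3 rose from 379 ± 96.4 to 2090.4 ± 222 CPM and from 734 ± 63.7 to 4464 ± 224 CPM, and Il1a, an alarm cytokine stored in epithelial cells, from 135 ± 6.88 to 577 ± 128 CPM. Il24 rose 3.85-fold and Csf3, the granulocyte growth factor, 4.84-fold. Ackr3, a scavenger receptor for Cxcl12, fell from 32.2 ± 2.38 to 7.99 ± 0.808 CPM. Cxcl12 itself, outside the list, measured 0.518, 0.601 and 1.65 CPM in vehicle, 0.346, 0.294 and 0.867 CPM at 6 h and 19.3, 23.1 and 20.2 CPM at 12 h, with a log2 fold change against vehicle of 4.54 (5.201 without vehicle replicate 3) and against 6 h of 5.297 (5.997 without PMA 6 h replicate 3). Csf1, the macrophage growth factor, was low at 6 h, at 8.52 ± 1.61, 0.709 ± 0.676 and 9.01 ± 1.61 CPM over the 3 groups, and was not called against vehicle at 12 h but was against 6 h (log2 3.73, or 4.802 without PMA 6 h replicate 2).

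Genes of prostaglandin synthesis and response counted 6 higher and 4 lower of 11, with a median of 0.41 that was -0.18 without normalization. Ptgs2, the inducible cyclooxygenase, rose from 7.49 ± 0.549 to 29.3 ± 8.12 CPM and the receptor gene Ptger4 from 4.87 ± 2.34 to 16.4 ± 1.71 CPM. Pla2g4a, the phospholipase that releases arachidonic acid, fell from 18.9 ± 0.289 to 3.69 ± 1.16 CPM.

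Matrix proteases and the plasminogen system, which open tissue for migrating epithelium, rose in 17 of 22 tested cases and fell in 4, with a median of 2.34. Mmp10, stromelysin-2 of wound edge keratinocytes, whose promoter is printed above, went from 9.97, 28.6 and 61.3 CPM to 1078, 1227 and 1079 CPM. The rise was 34.2-fold (log2 5.097, SE 0.63, edgeR adjusted p = 2.78e-04), and the log2 value was 5.87 without vehicle replicate 3, which held the highest of the 3 vehicle levels. Mmp9, a gelatinase, rose from 0.345, 0.4296 and 0.743 CPM to 39.2, 87.6 and 41.4 CPM and Mmp13, a collagenase, from 17.6 ± 6.604 to 256 ± 85.2 CPM. Plaur, the urokinase receptor, rose from 45.5 ± 7.56 to 1052 ± 101 CPM, and Serpinb2, an inhibitor of urokinase, from 406 ± 45.3 to 5129 ± 577 CPM. F3, tissue factor, the starter of clotting, rose from 114, 120.3 and 104 CPM to 1646, 1666 and 1712 CPM and was higher at 12 h than at 6 h (log2 2.43). Thbd, the clotting inhibitor thrombomodulin, was above vehicle at 6 h and below it at 12 h, at 19.98, 23.8 and 23.5 CPM in vehicle, 133, 148 and 137 CPM at 6 h and 13.2, 10.5 and 12.7 CPM at 12 h. Mmp15, a membrane-anchored protease, fell from 12.8 ± 2.22 to 1.27 ± 0.351 CPM.

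Matrix proteins and integrins gave 4 higher and 7 lower of 15, with a median of -0.36. Col5a1, a fibrillar collagen chain, fell from 20.9 ± 1.06 to 1.24 ± 0.225 CPM, and Fn1, fibronectin, from 457 ± 44.2 to 204 ± 32.3 CPM. Itga5, the alpha subunit of the fibronectin receptor, rose 2.98-fold. Thbs1, an adhesive glycoprotein, was at 51.1 ± 22.5, 3.35 ± 0.913 and 39.9 ± 1.97 CPM over the 3 groups and was called between 6 h and 12 h (log2 3.58) but not between vehicle and 12 h (log2 -0.36), where it was called lower without vehicle replicate 3 (log2 -0.68).

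Targets of YAP and TEAD, the factors that respond to cell spreading and tension, counted 7 higher and 1 lower of 12, with a median of 1.15 (3 lower with upper-quartile scaling and 4 without normalization). Cyr61 and Ctgf, matricellular proteins now named Ccn1 and Ccn2, are the classical targets. Cyr61 measured 33.3, 33.98 and 35.5 CPM in vehicle, 128, 118 and 101 CPM at 6 h and 873, 1034 and 898 CPM at 12 h, with no overlap between any groups. It rose 27.3-fold against vehicle (log2 4.77, SE 0.10, edgeR adjusted p = 4.07e-16), and most of the rise on the log2 scale fell between 6 h and 12 h (3.01, SE 0.095). Ctgf rose from 5.62 ± 1.75 to 54.3 ± 4.06 CPM, Wwtr1, the YAP partner TAZ, from 29.1 ± 1.99 to 189 ± 28.6 CPM and Tead1 from 33.99 ± 3.29 to 115 ± 9.09 CPM.

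In the TGF-beta superfamily, whose BMP and activin branches steer epithelial fate, 19 of 30 tested genes rose and 7 fell (11 fell without normalization), with a median of 0.84. Bmp2, a BMP ligand, measured 0.6903, 1.33 and 1.17 CPM in vehicle and 71.7, 56.2 and 62.6 CPM at 12 h, a rise of 59.6-fold (log2 5.897, SE 0.19, edgeR adjusted p = 2.47e-14), with a further rise after 6 h (log2 2.22). Inhba, the activin A subunit, went from 0.345, 0.04296 and 0.106 CPM to 10.3, 13.5 and 10.3 CPM, with a log2 fold change of 6.02 that was 7.16 without vehicle replicate 1. The feedback inhibitor Smad7 rose from 2.06 ± 0.701 to 54.96 ± 5.46 CPM, the activin trap Fst, follistatin, from 32.2 ± 8.36 to 122 ± 12.1 CPM and Tgfb2 from 10.9 ± 0.607 to 55.2 ± 3.296 CPM. The receptor genes Tgfbr3 and Tgfbr2 fell from 40.5 ± 1.98 to 7.87 ± 0.931 CPM and from 148 ± 4.55 to 91.4 ± 3.203 CPM.

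Wnt genes, which promote the activation of HBCs in other work, had no common direction: 10 rose and 9 fell of 24, with a median of 0.21 that was -0.06 with upper-quartile scaling and -0.37 without normalization, both with 5 higher. The ligand gene Wnt5a fell from 86.5 ± 4.59 to 26.5 ± 2.74 CPM and the receptor gene Fzd2 from 12.6 ± 0.253 to 2.25 ± 0.746 CPM. Wnt3a was at 15.1, 17.4 and 13.2 CPM in vehicle, 0.277, 0.2203 and 0.636 CPM at 6 h and 3.81, 5.01 and 3.47 CPM at 12 h, below vehicle (log2 -1.89) yet above 6 h (log2 3.36, SE 0.34, edgeR adjusted p = 4.82e-07), the last log2 value becoming 4.01 without PMA 6 h replicate 3. Lgr5, a Wnt-linked receptor of stem cells, had no read in vehicle and 18, 22 and 10 reads at 12 h, at least 27.2-fold higher against 3 reads over the group. Axin2, a common Wnt target, rose 2.07-fold. In the Notch list, 4 rose and 4 fell of 12 (median -0.11), and 7 were called lower with upper-quartile scaling and without normalization. The receptor gene Notch2 rose 3.01-fold, and Hes1, a Notch effector described below with the olfactory lineage, rose as well. The ligand genes Jag1 and Dll1 fell from 263 ± 22.3 to 101 ± 7.25 CPM and from 30.02 ± 1.904 to 13.002 ± 2.06 CPM and the glycosyltransferase gene Lfng from 19.4 ± 3.99 to 4.05 ± 1.08 CPM.

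Transcription factors of the olfactory lineage were mostly below the level tested: 7 could be tested, and Neurog1 and Neurod1, which define neuronal progenitors, could not. Of the 7, 5 rose and 2 fell, with a median of 2.09, and the number that fell was 1 when replicates 2 or 3 of either group were left out. Sox9, a factor of Bowman's glands and their precursors, measured 18.9, 16.6 and 18.5 CPM in vehicle and 151, 115 and 146 CPM at 12 h (7.61-fold, log2 2.93, SE 0.11, edgeR adjusted p = 2.10e-13). Hes1, a Notch effector found in sustentacular cells, rose from 96.7 ± 7.39 to 596 ± 4.68 CPM, Sox4 from 46.8 ± 2.68 to 493 ± 48.1 CPM and Emx2, a homeobox factor of the olfactory epithelium, from 12.1 ± 2.67 to 52.1 ± 2.36 CPM. Among sustentacular and gland markers Cyp2g1 and Cyp2a3 had no read in any library.

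Among the lists the deepest falls at 12 h were in cell division. Of 42 tested genes of DNA replication and S phase 41 fell and none rose, with a median log2 fold change of -3.41. Of 19 genes of homologous recombination and replication checkpoints 18 fell and none rose, with a median of -4.09, and of 52 genes of G2, mitosis and kinetochores 51 fell and 1 rose, with a median of -4.58. The vehicle libraries differed among themselves in these genes. The summed level of the G2 and mitosis genes other than Cdc20 was 1101 CPM in vehicle replicate 1, 2063 CPM in replicate 2 and 3516 CPM in replicate 3, against 187 to 209 CPM in the libraries of 12 h. For the S phase genes the sums were 2061, 2996 and 3700.4 CPM against 301 to 330 CPM. The lowest vehicle library was thus several times above the highest library of 12 h for both sums. Without vehicle replicate 3 the counts of genes called lower were 41 in S phase, 18 in recombination and 49 in G2 and mitosis. By limma-voom they were 41, 18 and 40.

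**Figure D3:**
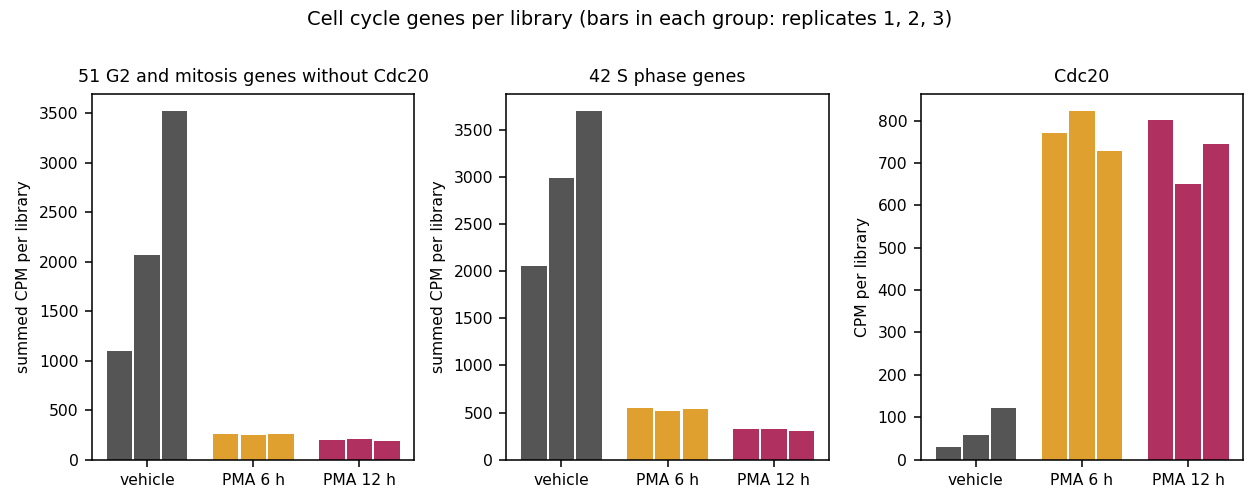
Summed CPM of 51 G2 and mitosis genes (left) and of 42 S phase genes (middle), and CPM of Cdc20 (right), one bar per library in replicate order. Vehicle libraries range from 1101 to 3516 CPM for the mitosis genes and all 12 h libraries lie at or below 209 CPM, while Cdc20 is higher in all PMA libraries than in any vehicle library.

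The replicative helicase gene Mcm3 fell from 87.9, 125 and 127 CPM to 2.72, 4.94 and 1.99 CPM (34.6-fold, log2 -5.11, SE 0.27, edgeR adjusted p = 3.37e-08), and every 12 h library was far below every vehicle library. Prim1, a primase subunit, fell from 175 ± 55.8 to 4.39 ± 0.814 CPM, Rrm2, the regulated subunit of ribonucleotide reductase, from 298 ± 127 to 10.3 ± 3.603 CPM, and Ccne1, cyclin E1, from 41.8 ± 4.93 to 5.29 ± 1.99 CPM. Pcna, the polymerase clamp, fell in steps, from 188 ± 50.6 to 91.9 ± 4.14 CPM at 6 h and 32.97 ± 1.84 CPM at 12 h (log2 12 h against 6 h -1.48). Gins2, a helicase cofactor, was at 20.9 ± 2.64 and 20.6 ± 2.12 CPM and was the 1 S phase gene not called. In the GRCr8 gene table Gins2 overlaps Gse1, reads of the pair cannot be assigned by strand, and the part of Gse1 reads in its level was not tested. Mki67, the marker of cycling cells, fell from 55.2, 119.7 and 217 CPM to 1.77, 1.82 and 2.25 CPM (67.3-fold, log2 -6.07, SE 0.65). Top2a, the mitotic topoisomerase, fell from 68.2, 154 and 296 CPM to 1.497, 0.581 and 0.7802 CPM, log2 -7.46, or -6.82 without vehicle replicate 3. Cdk1, the mitotic kinase, fell from 71.8 ± 38.3 to 2.01 ± 0.214 CPM and Aurkb, a kinase of chromosome segregation, from 43.2 ± 21.02 to 1.05 ± 0.0965 CPM. Fancd2, which marks stalled replication forks, fell from 35.9 ± 20.3 to 0.165 ± 0.149 CPM, and in the GRCr8 gene table it overlaps Fancd2os.

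Cenpf, a kinetochore protein, had 202, 536 and 1082 reads in the vehicle libraries and none at 12 h, so it was at least 372-fold lower against 3 reads over the group. The call for Cenpf by edgeR was lost with limma-voom and with only the 6 libraries compared. Kif2c, a microtubule depolymerase at centromeres, had 146, 336 and 497 reads and none, at least 199.96-fold lower. Exo1, an exonuclease of recombination and mismatch repair, kept 1 read at 12 h against 1337 in vehicle, a ratio of 819-fold, 95% exact counting interval 147 to 32382. Pbk, a mitotic kinase, kept 2 reads against 1544 (473-fold, 95% exact counting interval 131 to 3909.5), and Clspn, the checkpoint protein claspin, 3 against 1471 (300.4-fold, 95% exact counting interval 103 to 1459). These intervals cover counting error only.

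Cdc20, the activator of the anaphase-promoting complex, was the 1 mitotic gene that rose. It measured 29.1, 57.95 and 121 CPM in vehicle and 800.5, 649 and 745 CPM at 12 h, a rise of 10.6-fold (log2 3.404, SE 0.50, edgeR adjusted p = 6.69e-04), or log2 4.07 without vehicle replicate 3. Its neighbour in the GRCr8 gene table is Elovl1, an elongase of very long chain fatty acids, which rose from 204, 199.8 and 199 CPM to 2208, 1942 and 2215 CPM (10.6-fold, log2 3.401, SE 0.081, edgeR adjusted p = 1.04e-15). Without strand, reads that run from the one gene into the other cannot be told apart from its own, and the part of such reads in the rise of Cdc20 was not tested.

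Windows at the start of S phase genes were searched for the E2F element, the site of the factors that retinoblastoma proteins restrain. The letters TTCCCGC, on both strands, were in 14 of 33 windows of the S phase list (42.4%), against 8.59% of all 7925 windows of tested genes, 10.9% of those of genes that fell at least 2-fold, 6.39% of those that rose at least 2-fold and 4.66% of all RefSeq windows. The NF-Y box, CCAAT on both strands, a mark of mitotic gene promoters, was in 30 of 41 windows of the G2 and mitosis list (73.2%), in 60.6% of those of the S phase list, in 6 of 10 of the cornified envelope list, in 53.9% of those of genes that fell at least 8-fold, in 37.9% of all windows of tested genes and in 37.8% of all RefSeq windows. The motifs were searched one by one, and overlaps between them were not scored. The 3 list genes with the largest falls among those holding the E2F letters, at 5 CPM or more in every vehicle library, are shown with the element in capitals, in the orientation of the gene.
Fancd2 (chr4:148234458-148234757, + strand): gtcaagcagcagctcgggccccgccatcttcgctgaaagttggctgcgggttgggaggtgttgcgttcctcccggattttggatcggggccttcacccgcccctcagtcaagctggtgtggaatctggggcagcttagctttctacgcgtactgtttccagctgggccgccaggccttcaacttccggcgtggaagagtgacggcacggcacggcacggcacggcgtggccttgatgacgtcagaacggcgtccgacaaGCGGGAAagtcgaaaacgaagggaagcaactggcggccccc
Prim1 (chr7:1031212-1031511, + strand): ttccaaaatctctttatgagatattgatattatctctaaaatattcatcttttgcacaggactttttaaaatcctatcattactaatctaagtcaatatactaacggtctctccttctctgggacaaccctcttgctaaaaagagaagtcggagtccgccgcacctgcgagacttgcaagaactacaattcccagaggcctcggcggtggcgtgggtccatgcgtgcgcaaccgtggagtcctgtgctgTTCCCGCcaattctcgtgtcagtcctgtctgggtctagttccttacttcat
Mcm3 (chr9:30733697-30733996, - strand): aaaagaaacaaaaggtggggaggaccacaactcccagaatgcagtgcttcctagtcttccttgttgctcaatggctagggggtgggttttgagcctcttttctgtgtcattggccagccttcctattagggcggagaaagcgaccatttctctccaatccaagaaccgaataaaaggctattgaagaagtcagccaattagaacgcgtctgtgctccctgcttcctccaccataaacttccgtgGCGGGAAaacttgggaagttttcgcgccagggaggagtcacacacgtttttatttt
In Fancd2 the letters lay on the opposite strand, with their first base 10 bases after the start, in Prim1 they began 1 base before the start, and in Mcm3 they lay on the opposite strand from 6 bases before it. All 14 S phase genes whose window held the element fell, as did 41 of the 42 tested.

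Inhibitors of the cell cycle and growth arrest genes were mixed, with 15 higher and 8 lower of 28 and a median of 0.35 (-0.23 without normalization, with 13 lower). Gadd45b, a stress and growth arrest protein, rose from 18.9, 17.2 and 19.6 CPM to 1654, 1547 and 1647 CPM (86.98-fold, log2 6.44, SE 0.11, edgeR adjusted p = 5.78e-17), and Btg1, an antiproliferative factor, from 141 ± 12.3 to 1599 ± 92.3 CPM. The CDK inhibitor genes Cdkn1a, Cdkn2b and Cdkn1c, which encode p21, p15 and p57, rose from 475 ± 48.8 to 1331 ± 120.1 CPM, from 31.1 ± 3.699 to 292 ± 9.71 CPM and from 8.68 ± 1.401 to 86.5 ± 23.2 CPM. Cdkn2a, the locus of p16 and Arf, was below vehicle at 6 h and above it at 12 h (means of 58.9 ± 3.57 CPM in vehicle, 43.04 ± 5.205 at 6 h and 109.8 ± 10.6 at 12 h). The G1 cyclin genes Ccnd1, Ccnd2 and Ccnd3 fell 1.3997-fold, 1.91-fold and 2.09-fold. Among chromatin modifiers, with 6 higher and 10 lower of 21 (median -0.30), Dnmt1, which copies DNA methylation at replication, fell from 217 ± 58.7 to 24.5 ± 0.321 CPM and Kdm6b, an H3K27 demethylase, rose from 46.04 ± 3.64 to 156 ± 8.57 CPM.

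The machinery of translation split. Of 77 tested genes of cytosolic ribosomal proteins 76 rose and none fell, in a narrow band with a median of 0.92, up to 1.29 for Rps18, and the median was 0.65 with upper-quartile scaling and 0.34 without normalization. Many of these genes have near-identical processed copies in the genome, so single values are uncertain. Of 67 genes of mitochondrial ribosomal proteins 55 fell and 1 rose (3 without PMA 12 h replicate 2), with a median of -0.75. Genes that build ribosomes fell in 29 of 35 cases with 1 higher (median -1.13), and 23 of the 35 were called lower at 12 h than at 6 h, against 25.8% of all genes tested. Fbl, the methyltransferase fibrillarin of small nucleolar particles, fell from 104.8, 107 and 116 CPM to 26.3, 27.2 and 30.8 CPM (3.88-fold, log2 -1.96, SE 0.093, edgeR adjusted p = 3.91e-12), Polr1b, a subunit of RNA polymerase I, from 33.3 ± 1.12 to 8.603 ± 1.05 CPM, and Ncl, nucleolin, from 1419 ± 83.1 to 692 ± 16.5 CPM. The elongation factor gene Eef1a1 went from 0.942% to 1.92% of reads.

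**Figure D4:**
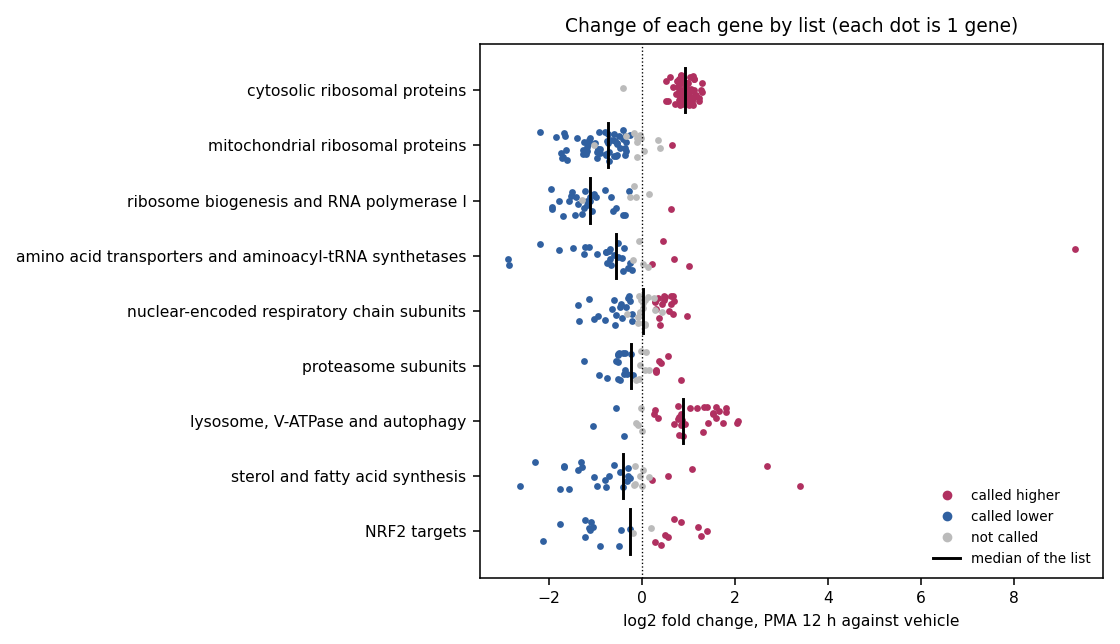
Log2 fold change at 12 h against vehicle for every tested gene of 9 lists of translation, metabolism and turnover, with called genes in red or blue, genes not called in grey and a bar at each median. The cytosolic ribosomal proteins form a narrow band around 0.92, and the mitochondrial ones spread around -0.75.

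Genes of amino acid supply fell for the most part, with a large exception. Slc6a14, a broad neutral and cationic amino acid transporter whose promoter is printed above, measured 0.431, 1.12 and 2.39 CPM in vehicle, 492, 548 and 539 CPM at 6 h and 748, 845 and 796 CPM at 12 h. The rise over vehicle was 633-fold (log2 9.31, SE 0.31, edgeR adjusted p = 6.66e-09), the largest by the naming rule, or log2 9.99 without vehicle replicate 3. Among 34 tested amino acid transporters and aminoacyl-tRNA synthetases 5 rose and 25 fell, with a median of -0.56. With upper-quartile scaling, with only the 6 libraries compared or without vehicle replicate 2, 3 rose, and 2 did without normalization. Slc38a3, a glutamine transporter, fell from 64.7 ± 9.41 to 8.75 ± 0.675 CPM, Slc7a5, the large neutral transporter, from 119 ± 37.8 to 60.8 ± 4.01 CPM, and the synthetase gene Farsb from 125 ± 1.39 to 27.1 ± 4.25 CPM. Genes of the proteasome, which degrades tagged proteins, counted 7 higher and 17 lower of 31 (median -0.23), with 2 higher with upper-quartile scaling and 1 higher and 29 lower without normalization.

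Lysosomal genes rose for the most part. Of 36 tested genes of lysosome, V-ATPase and autophagy 29 rose and 3 fell, with a median of 0.87 (7 and 9 were called lower than vehicle with upper-quartile scaling and without normalization). At 12 h 20 were higher than at 6 h and 5 lower, against 25.3% and 25.8% of all genes tested. The protease gene Ctsd rose from 546, 529.7 and 514 CPM to 2285, 1737 and 2557 CPM (4.14-fold, log2 2.05, SE 0.11, edgeR adjusted p = 6.81e-11), Ctsl from 998 ± 106 to 4122 ± 332 CPM and Ctsb from 849.98 ± 66.6 to 2846 ± 146 CPM. Sqstm1, the autophagy receptor p62, rose 2.99-fold and the membrane protein gene Lamp2 3.13-fold. Atp6v0a1, a V-ATPase subunit, fell 2.0996-fold.

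Genes of sterol and fatty acid synthesis were mostly lower than in vehicle, and many were above their 6 h level. Of 33 tested genes 5 rose and 21 fell at 12 h against vehicle (median -0.42, with 3 higher with upper-quartile scaling and without normalization). Against 6 h, 19 were higher and 3 lower at 12 h, where 25.3% and 25.8% of all genes tested were. Scd2, a desaturase, fell from 1398, 1512 and 1204 CPM to 212, 268 and 182 CPM (6.22-fold). Hmgcs1, the enzyme before the committed step of sterol synthesis, fell from 633 ± 77.6 to 242 ± 50.7 CPM. Insig1, which holds the pathway's SREBP factors back, rose from 192 ± 30.8 to 1226 ± 10.7 CPM.

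Glycolysis and hypoxia genes counted 14 higher and 9 lower of 29 (median 0.38, and -0.20 with 14 lower without normalization). Ndrg1, a differentiation and hypoxia gene, rose from 1926 ± 162 to 7929.6 ± 607 CPM, Pfkfb3, which raises glycolytic flux, from 18.8 ± 3.56 to 92.2 ± 3.797 CPM and Vegfa, the vascular growth factor, from 369 ± 7.27 to 922 ± 22.3 CPM. Slc2a1, the glucose transporter of basal cells, fell from 2209.8, 2208 and 1947 CPM to 863, 811 and 998 CPM (2.38-fold). Nuclear-encoded subunits of the respiratory chain had 18 higher and 19 lower of 54, with a median of 0.01 that was -0.26 with upper-quartile scaling and -0.57 without normalization, where 1 was higher and 37 lower. Against 6 h 24 were higher and 2 lower at 12 h, where 25.3% and 25.8% of all genes tested were.

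Targets of NRF2, the oxidative stress factor, were 9 higher and 12 lower of 23 (median -0.25, with 3 higher without normalization). At 12 h 3 were higher and 12 lower than at 6 h, against 25.3% and 25.8% of all genes tested. Hmox1, heme oxygenase, and Txnrd1, thioredoxin reductase, rose 2.405-fold and 2.28-fold. Gsr, glutathione reductase, fell from 215 ± 16.5 to 48.4 ± 3.67 CPM and Nqo1, a quinone reductase, from 383 ± 126 to 174 ± 45.4 CPM. Among genes of the unfolded protein, Atf4 and heat shock responses 15 rose and 4 fell of 27 (median 0.55). The number that fell was 7 with upper-quartile scaling and 8 without normalization, where the median was -0.03, and 8 without vehicle replicate 1. Ppp1r15a, which restarts translation after stress, rose 7.13-fold, and Atf4 2.74-fold. Hspa1a and Hspa1b, near-identical heat shock genes whose reads are not safely split, rose from 5.43 ± 0.998 to 127 ± 9.84 CPM and from 16.2 ± 2.57 to 257 ± 1.21 CPM. Hspb1, a small heat shock protein, was high at 6 h only: 160.2, 120.1 and 86.6 CPM in vehicle, 900.5, 896 and 754 CPM at 6 h and 127, 118 and 110.3 CPM at 12 h, with no call between vehicle and 12 h and a log2 fold change of -2.84 between 6 h and 12 h.

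Interferon response genes had no common direction, with 9 higher and 5 lower of 24 and a median of 0.18 (-0.09 with upper-quartile scaling and -0.40 without normalization, where 9 were lower). Rsad2, the antiviral protein viperin, rose from 1.596, 0.515 and 0.425 CPM to 129.6, 192 and 123 CPM (log2 7.401, SE 0.39, edgeR adjusted p = 4.27e-07), or 8.26 without vehicle replicate 1. Irf1, an interferon regulatory factor that NF-kB also induces, rose from 35.8 ± 0.789 to 134 ± 5.95 CPM, while Isg15 was at 5.42 ± 0.783 and 5.36 ± 0.159 CPM and was not called. Apoptosis regulators were 12 higher and 4 lower of 20 (median 0.71, with 7 lower without normalization). Pmaip1, the death protein Noxa, rose from 64.5 ± 3.67 to 332 ± 3.67 CPM and Bcl2l1, the survival protein Bcl-xL, 1.74-fold, while Bax was at 80.5 ± 3.05 and 78.8 ± 4.59 CPM and was not called. Clock genes were 11 higher and 3 lower of 15 (median 0.60), with 7 higher with upper-quartile scaling and 5 without normalization. Nr1d1, the clock repressor Rev-erb alpha, rose from 19.2, 23.2 and 27.7 CPM to 272, 292 and 268 CPM (11.9-fold), and in the GRCr8 gene table it overlaps Thra, whose log2 fold change was 0.89. Dbp, a clock output factor, rose 6.99-fold, and Npas2, a partner of Bmal1, fell 2.17-fold.

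Beyond the lists, a rule of size named the 12 largest rises and falls with at least 5 CPM in every library of the higher group. The rises not yet described were Sall3, Gpr153, Tspan18, Tm4sf1, Plet1, Atp13a4 and Rnf39. Gpr153, an orphan receptor, rose from 0, 0.387 and 0.212 CPM to 57.2, 45.2 and 65.9 CPM (log2 8.08, or 7.47 and 9.08 without vehicle replicates 1 and 2). Tm4sf1, a tetraspanin-like membrane protein of migrating cells, rose from 0.0431, 0.04296 and 0.212 CPM to 18.4, 26.3 and 19.4 CPM (log2 7.74, or 8.72 without vehicle replicate 3), and Atp13a4, a P5-type ATPase, from 0.6903, 1.63 and 3.08 CPM to 221, 219 and 216 CPM. Rnf39 rose from 1.83 ± 0.286 to 188 ± 35.7 CPM, and in the GRCr8 gene table it overlaps Ppp1r11, whose log2 fold change was 1.07. Sall3, a zinc finger factor of development, had 1 read in vehicle against 314 at 12 h, a ratio of 512-fold, 95% exact counting interval 91.3 to 20304. Tspan18, a tetraspanin, had 2 against 367 (299-fold, 95% exact counting interval 82.3 to 2482), and Plet1, a surface marker of epithelial progenitors, 2 against 300 (245-fold, 95% exact counting interval 67.2 to 2031). The falls were all of genes of the cell cycle and DNA repair. Besides those above they were Kif15, a spindle kinesin (32.9 ± 17.8 to 0.142 ± 0.145 CPM, log2 -7.71, or -8.62 without PMA 12 h replicate 2), Ns5atp9, a clamp-binding protein now named Pclaf (21.2 ± 13.2 to 0.152 ± 0.0194 CPM), Dscc1, a cohesion factor (18.7 ± 6.07 to 0.142 ± 0.145 CPM, log2 -6.89, or -7.804 without PMA 12 h replicate 2), Cenpt, a kinetochore protein (19.7 ± 11.4 to 0.1499 ± 0.1896 CPM, log2 -6.96, or -6.33 and -8.75 without PMA 12 h replicates 1 and 2), and Gen1, a resolvase of recombination (767 reads against 3, 157-fold, 95% exact counting interval 53.4 to 761). At 12 h Kif15, Ns5atp9, Dscc1 and Cenpt had 6 reads each over the group. In the GRCr8 gene table Kif15, Ns5atp9, Cenpt, Clspn, Parpbp and Ctsd also overlap other genes, whose reads cannot be told apart from theirs by strand. The same limit holds for further named genes, among them Txnrd1, Hspa1a, Tjp3, Dll1, Psmc6, Rrm2 and Slc6a9, and not all overlaps are given here.

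Some genes had no read at all in one group and at least 10 in every library of the other. There were 11 without a read in vehicle, among them Trim69 (43, 70 and 22 reads at 12 h, at least 73.4-fold higher), Lypd5 (43, 44 and 31, at least 64.2-fold), Kdr, the receptor for Vegfa (28, 27 and 42, at least 52.8-fold), Crisp1 (34, 15 and 32, at least 44.1-fold) and Alpl, tissue-nonspecific alkaline phosphatase (26, 26 and 16, at least 36.99-fold). There were 18 without a read at 12 h. Besides Cenpf and Kif2c the ones with the most reads in vehicle were Polq, the polymerase of end joining (97, 197 and 255 reads, at least 112-fold lower), Parpbp, an inhibitor of recombination (71, 133 and 222, at least 87.01-fold), and Cenpw, a kinetochore subunit (45, 120 and 193, at least 73.1-fold).

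Between 6 h and 12 h 5175 genes were called, 51.1% of those tested, 2561 higher (25.3%) and 2614 lower (25.8%), with a median size of 0.63 on the log2 scale. Of these 616 rose (6.08%) and 551 fell (5.44%) by at least 2-fold, and 32 (0.316%) and 18 (0.178%) by at least 8-fold. The CPM ranges of 6 h and 12 h did not overlap for 58.0% of genes tested. At 6 h against vehicle 76.8% of genes tested were called, 37.8% higher and 39.0% lower. The comparison shares its 12 h libraries with the one against vehicle, and the 6 h and 12 h values against vehicle share the vehicle libraries. By the naming rule the largest rises after 6 h among genes also above vehicle at 12 h were Ccl20, Cxcl12, Flnc, Cyr61, Gja4, Ugt1a2, Sprr3 and Ctnnd2. Gja4, the gap junction protein connexin 37, measured 1.68, 1.98 and 2.23 CPM in vehicle, 13.8, 15.6 and 15.8 CPM at 6 h and 101, 71.3 and 123 CPM at 12 h (log2 2.704 after 6 h, SE 0.17, edgeR adjusted p = 1.28e-08). Ctnnd2, a delta-catenin, measured 8.59 ± 3.41, 13.9 ± 2.23 and 84.6 ± 8.87 CPM, and Flnc, an actin cross-linker of strained cells, 0.465 ± 0.165, 0.921 ± 0.315 and 8.25 ± 0.671 CPM. Among the largest falls were Thbd, Xdh, Smc2, Srxn1, Ugt1a6, Egln3 and Rabl2a. Egln3, an oxygen sensor of the HIF pathway, measured 366, 373 and 365 CPM in vehicle, 446, 461 and 445 CPM at 6 h and 99.2, 106 and 94.9 CPM at 12 h (log2 -2.17 after 6 h, SE 0.071, edgeR adjusted p = 6.32e-13). Xdh, which makes uric acid, measured 22.3 ± 2.68, 13.4 ± 2.69 and 2.63 ± 0.849 CPM, and Smc2, a condensin subunit, 100.4 ± 39.01, 18.1 ± 3.12 and 3.72 ± 0.0195 CPM. Ugt1a2 and Ugt1a6 are forms of 1 locus with shared exons, and their counts (50.2 ± 7.95 to 84.97 ± 8.31 CPM and 23.4 ± 2.796 to 4.09 ± 0.916 CPM from vehicle to 12 h) are uncertain.

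**Figure D5:**
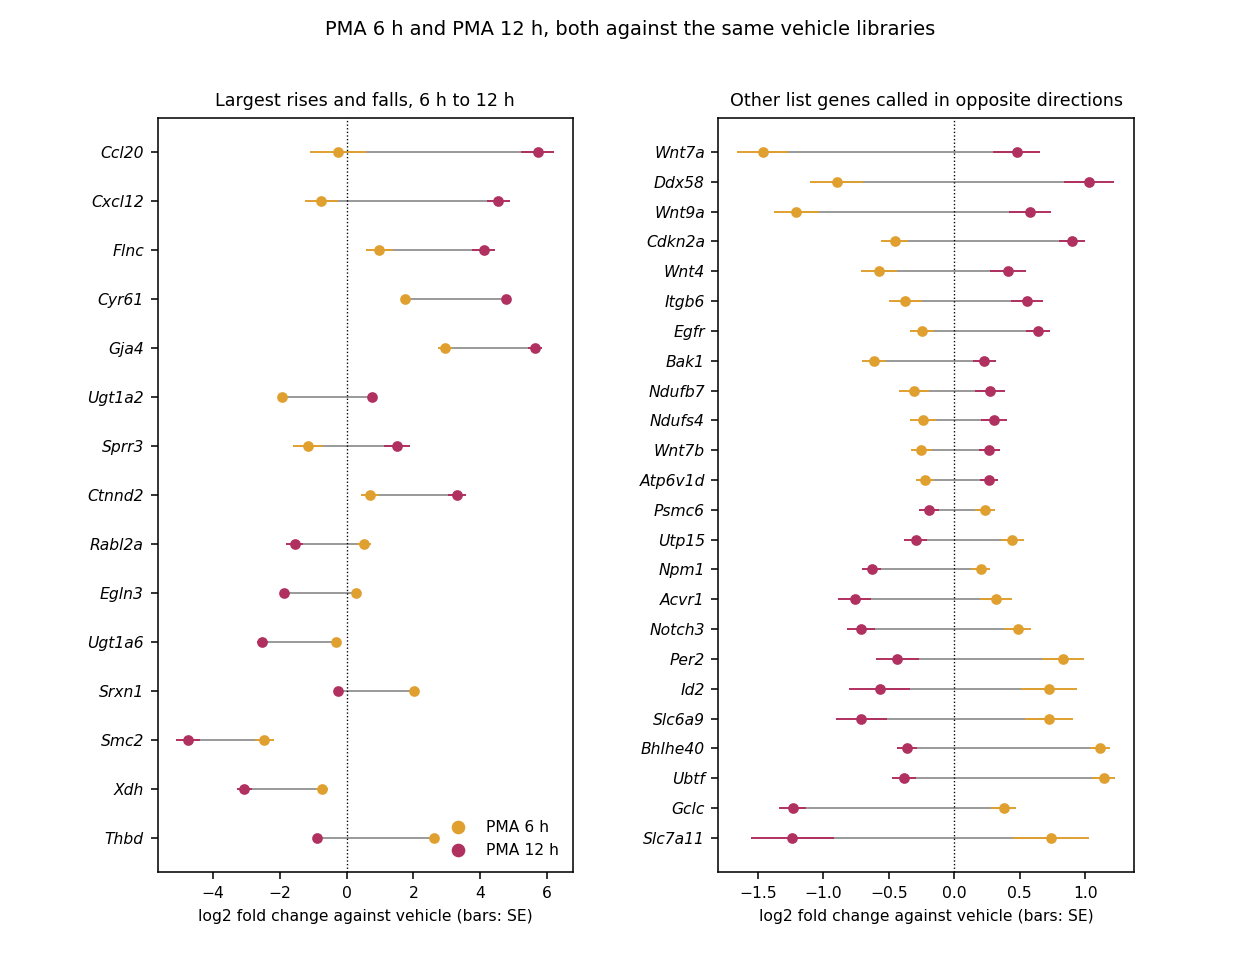
Log2 fold change against the same vehicle libraries at 6 h (orange) and 12 h (red), with SE as bars, for genes with the largest changes after 6 h (left) and for other list genes called in opposite directions at the 2 times (right). Ccl20 and Cxcl12 lie at or below 0 at 6 h and above 4 at 12 h, and Thbd crosses from above to below 0.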

How the data were processed

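The files hold raw read counts per gene and library, deposited by the authors. STAR 2.7.5b, DESeq2 and the rn6 build are named in the submitters' processing notes, and the annotation and the role of each tool are not given in the sources used here. The unstranded counts of 17315 genes were used, without 4 summary lines, and 9 columns of deposited normalized values were not used. Genes with low counts were dropped by filterByExpr (minimum count 10), TMM scaling was applied, and edgeR 4.0.16 (quasi-likelihood test, R 4.3.3) was fitted with group as the only term over all 9 libraries, with limma 3.58.1 and DESeq2 1.42.0 as alternatives beside other scalings, no filter, the 6 libraries alone, a replicate block and leaving out each library. The code was tested on simulated counts. The comparison, gene lists and naming rules were chosen with earlier results of these data known. Named were the 12 largest called rises and falls without overlap and with at least 5 CPM in every library of the higher group, the 8 largest after 6 h in the same direction as against vehicle, list members, the 5 genes with the most reads in each direction among those without a read in the other group, and list members called in opposite directions at 6 h and 12 h; some of the genes these rules name are not reported here. Promoter windows (RefSeq, GRCr8) were matched by symbol to 7925 of 10128 tested genes. Gene neighbours come from the same table, since the counts were made on another build. Counting intervals and floors cover counting error only.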

Additional observations from a re-analysis of the deposited data

Results flagged for a closer look

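Of 1011 different list members tested, 29 were called in opposite directions against vehicle at 6 h and at 12 h, and the difference between 6 h and 12 h was itself called by edgeR's quasi-likelihood test. That is 2.87% of them, and the same held for 3.09% of all 10128 genes tested. The 6 h and 12 h values share the vehicle libraries, so the values are given side by side, as log2 fold changes.

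Among genes of adhesion, differentiation and proteolysis, Egfr, the EGF receptor, went from -0.24 at 6 h to 0.64 at 12 h, a difference of 0.88. The cornified envelope gene Sprr3 went from -1.16 to 1.4998 (difference 2.66) and Itgb6, an integrin subunit of wounded epithelium, from -0.37 to 0.55 (0.93). Thrombomodulin, Thbd, went down through 0, from 2.63 to -0.89 (-3.52). Some ligand genes of the Wnt list crossed upward: Wnt4 from -0.57 to 0.41 (0.98), Wnt7a from -1.46 to 0.48 (1.94), Wnt7b from -0.25 to 0.27 (0.52) and Wnt9a from -1.21 to 0.58 (1.79). Other Wnt ligand genes did not, among them Wnt3a and Wnt5a, which were below vehicle at 12 h. The receptor genes Notch3 and Acvr1, a BMP receptor, went from 0.48 to -0.71 (-1.197) and from 0.32 to -0.76 (-1.08), and Id2, a BMP target, from 0.73 to -0.57 (-1.295).

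Stress and supply genes mostly crossed downward. The NRF2 targets Gclc, Srxn1 and Slc7a11, which serve glutathione and peroxiredoxin chemistry, went from 0.38 to -1.23 (-1.61), from 2.02 to -0.25 (-2.28) and from 0.74 to -1.24 (-1.98). The 12 h call of Srxn1 was lost when vehicle replicate 1 (-0.21) or PMA 12 h replicate 2 (-0.14) was left out. Egln3 went from 0.29 to -1.88 (-2.17) and the glycine transporter gene Slc6a9 from 0.72 to -0.71 (-1.43). The clock genes Per2 and Bhlhe40 went from 0.83 to -0.43 (-1.26) and from 1.11 to -0.36 (-1.47). Of the ribosome builders, Ubtf went from 1.14 to -0.38 (-1.52), Npm1 from 0.203 to -0.63 (-0.83) and Utp15 from 0.44 to -0.29 (-0.74), and the proteasome gene Psmc6 from 0.24 to -0.19 (-0.43).

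The others crossed upward. Cdkn2a went from -0.45 to 0.897 (1.35), Ddx58, the viral RNA sensor RIG-I, from -0.898 to 1.03 (1.93), the death effector gene Bak1 from -0.61 to 0.23 (0.84), the V-ATPase gene Atp6v1d from -0.22 to 0.26 (0.49), and the complex I genes Ndufb7 and Ndufs4 from -0.31 to 0.27 (0.58) and from -0.24 to 0.303 (0.54).

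For some of these genes, as for Srxn1, the 12 h call was lost when 1 library was left out, in some cases with little change in the log2 fold change. For most of them this held for more than 1 choice of library. Each value that follows is a log2 fold change at 12 h with 1 library left out and an adjusted p over the threshold. For Bak1 it was 0.22 and 0.19 without vehicle replicates 2 and 3 and 0.14 without PMA 12 h replicate 3. Ndufb7 gave 0.26 and 0.23 without vehicle replicates 1 and 3 and 0.11 without PMA 12 h replicate 3, and Psmc6 gave -0.19, -0.18 and -0.13 without the same libraries. Per2 gave -0.34 and -0.39 without vehicle replicates 1 and 2 and -0.37 and -0.37 without PMA 12 h replicates 1 and 2. Id2 gave -0.501 and -0.57 without vehicle replicates 1 and 3 and -0.49 and -0.51 without PMA 12 h replicates 2 and 3. For Wnt7a the values were 0.38 without vehicle replicate 1 and 0.47 and 0.35 without PMA 12 h replicates 1 and 3. Without PMA 12 h replicate 3 Wnt4 gave 0.25 and Ndufs4 0.22.

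Some 12 h calls among these genes were also lost with other settings. With the replicate number as a block Ndufb7 was at 0.27 (edgeR adjusted p = 0.0672) and Psmc6 at -0.19 (edgeR adjusted p = 0.0547), although the numbers were not found to pair the libraries. Id2 was not called by limma-voom or without the filter on low counts, and Wnt4, Bak1 and Ndufb7 were not called with only the 6 libraries compared. With upper-quartile scaling Wnt4, Wnt7a, Wnt7b, Wnt9a, Atp6v1d, Bak1, Ndufb7 and Ndufs4 were not called, and without normalization neither were Egfr, Itgb6, Wnt4, Wnt7a and Wnt9a. Without normalization Wnt7b, Atp6v1d, Bak1, Ndufb7 and Ndufs4 were called in the opposite direction, lower than vehicle, at -0.31, -0.32, -0.35, -0.31 and -0.28.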

How the results depend on the processing

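With no normalization beyond library totals, 2120 genes were called higher and 6021 lower at 12 h against vehicle. That scaling leaves the concentration of reads in fewer genes at 12 h uncorrected, and which scaling is nearer the truth was not tested. Under the other alternatives the number called in either direction lay between 7259 and 7830, with DESeq2 giving 7635 and limma-voom 7689, and between 12 h and 6 h DESeq2 gave 5202 and limma-voom 4914. Leaving out 1 library at a time gave 3635 to 3846 higher and 3624 to 3984 lower. Same-numbered replicates of different groups did not deviate together (correlations from -0.115 to 0.0270). With 3 libraries in each group this cannot exclude a shared animal, culture or day, which the labels do not state. A fit with the replicate number as a block called 7539 genes at 12 h against vehicle and 4955 against 6 h. With a minimum of 5 reads in place of 10, 21 genes had no read in vehicle and 33 none at 12 h.

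Some named log2 fold changes at 12 h against vehicle changed sign with the scaling. Among all genes tested, 368 called on the TMM scale were called in the opposite direction without normalization, and 0 with upper-quartile scaling. With upper-quartile scaling Atp6v1d was -0.00598, Bak1 -0.041 and Wnt7b -0.00158. Without normalization Atp6v1d was -0.32, Bak1 -0.35, Itgb6 -0.024, Ndufb7 -0.31, Ndufs4 -0.28, Tubb4b -0.41, Wnt4 -0.17, Wnt7a -0.11, Wnt7b -0.31 and Wnt9a -0.00152. Genes with a few reads in 1 group are limited by depth, which is why ratios with counting intervals or bounds are given for them.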
